A study of Mus musculus with 4 samples.

Results

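The SLAM family receptors and their adaptor SAP were followed in splenic Treg cells of the mouse, the regulatory CD4 T cells that are defined by Foxp3 and hold back immune responses. The group held 7 genes: the receptor genes Slamf1, Slamf6, Slamf7, Cd48, Cd84 and Ly9, and the adaptor gene Sh2d1a. Every probe set that the platform annotation assigns to one of these genes was taken, which gave 12 probe sets among the 45101 on the array. Slamf1 and Slamf6 had 3 probe sets each, Cd84 had 2, and the other 4 genes had 1 each. All 12 were bright enough to be tested.

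The cells came from C57BL/6 mice, and RNA from 4 samples was hybridised to 4 arrays. Of these, 2 were titled Foxo1/3-deficient and 2 wild-type, and each title carries a pair number, and pair 1 and pair 2 each hold 1 array per genotype. For the Foxo1/3-deficient samples the genotype field gives only Foxo1, and the titles were used. All samples were described as CD4+Foxp3+ Treg cells; the means of deletion, the age and sex of the mice and any pooling of animals are not stated in the labels. Nothing says that the 2 arrays of a genotype came from separate animals. The p-values thus measure the spread between these arrays, pooled in part over genes, and that spread may be technical.

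The Foxo1 signal went against the labels. It read 6949 and 6697 on the arrays labelled deficient, against 2383 and 1254 on the wild-type arrays (limma adjusted p = 0.0209). The adjusted p was 0.0685 when dim probe sets were kept and 0.0788 when the variance had no intensity trend. Foxo3 read lower on the labelled-deficient arrays, at 1424 and 1308 against 1876 and 2635, but did not pass the test (limma adjusted p = 0.241). It passed in the fit blocked by pair (0.0127). Where these probe sets lie relative to the deleted parts is unknown here, and each direction below is that of the arrays as labelled. Of 9 markers of Treg cells, among them Foxp3, Ctla4, Ikzf2 and Cd4, 0 passed the test, and 0 did so at an unadjusted p under 0.05 or in the fit blocked by pair. Foxp3 read 6504 and 6056 on the labelled-deficient arrays, against 6540 and 6285 on the wild-type arrays.

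SLAM family receptors are immunoglobulin-like surface proteins of blood cells. Most of them bind a copy of themselves on a neighbouring cell, and most carry tyrosine switch motifs in their cytoplasmic tails that recruit SAP, a protein made of little more than an SH2 domain, which in turn brings in the kinase Fyn. Where SAP is lacking the same motifs recruit inhibitory phosphatases, so that one receptor can deliver either kind of signal. In mice the family is known for sustaining the contacts of T cells with B cells in germinal centres and for the development of innate-like T cells.

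Slamf6 was higher and Slamf7 lower on the labelled-deficient arrays, by 4.0-fold and 5.16-fold, and Slamf1 and Cd48 lay lower by less. Cd84, Ly9 and Sh2d1a had the smallest differences of the 7. By limma over 12115 genes, with 1 probe set per gene and an adjusted p under 0.05, 1 of the 7 genes was called higher, where 1.21% of all genes were, and 1 was called lower, where 1.35% were. At an unadjusted p under 0.05, 4 of the 7 were past the threshold, where 13.0% of all genes were. In 6 of the 7 genes the signals of the 2 labels did not overlap, which held for 41.1% of all genes. The median log2 difference over the 7 genes was -0.27, and over all genes it was -0.0034. The former is the value of the brighter Cd84 probe set, and the dimmer one stood at 0.44, so this median hangs on the probe set chosen. Differences are on the log2(signal + 17) scale, labelled-deficient minus wild-type, and understate the change of dim genes.

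**Figure D1:**
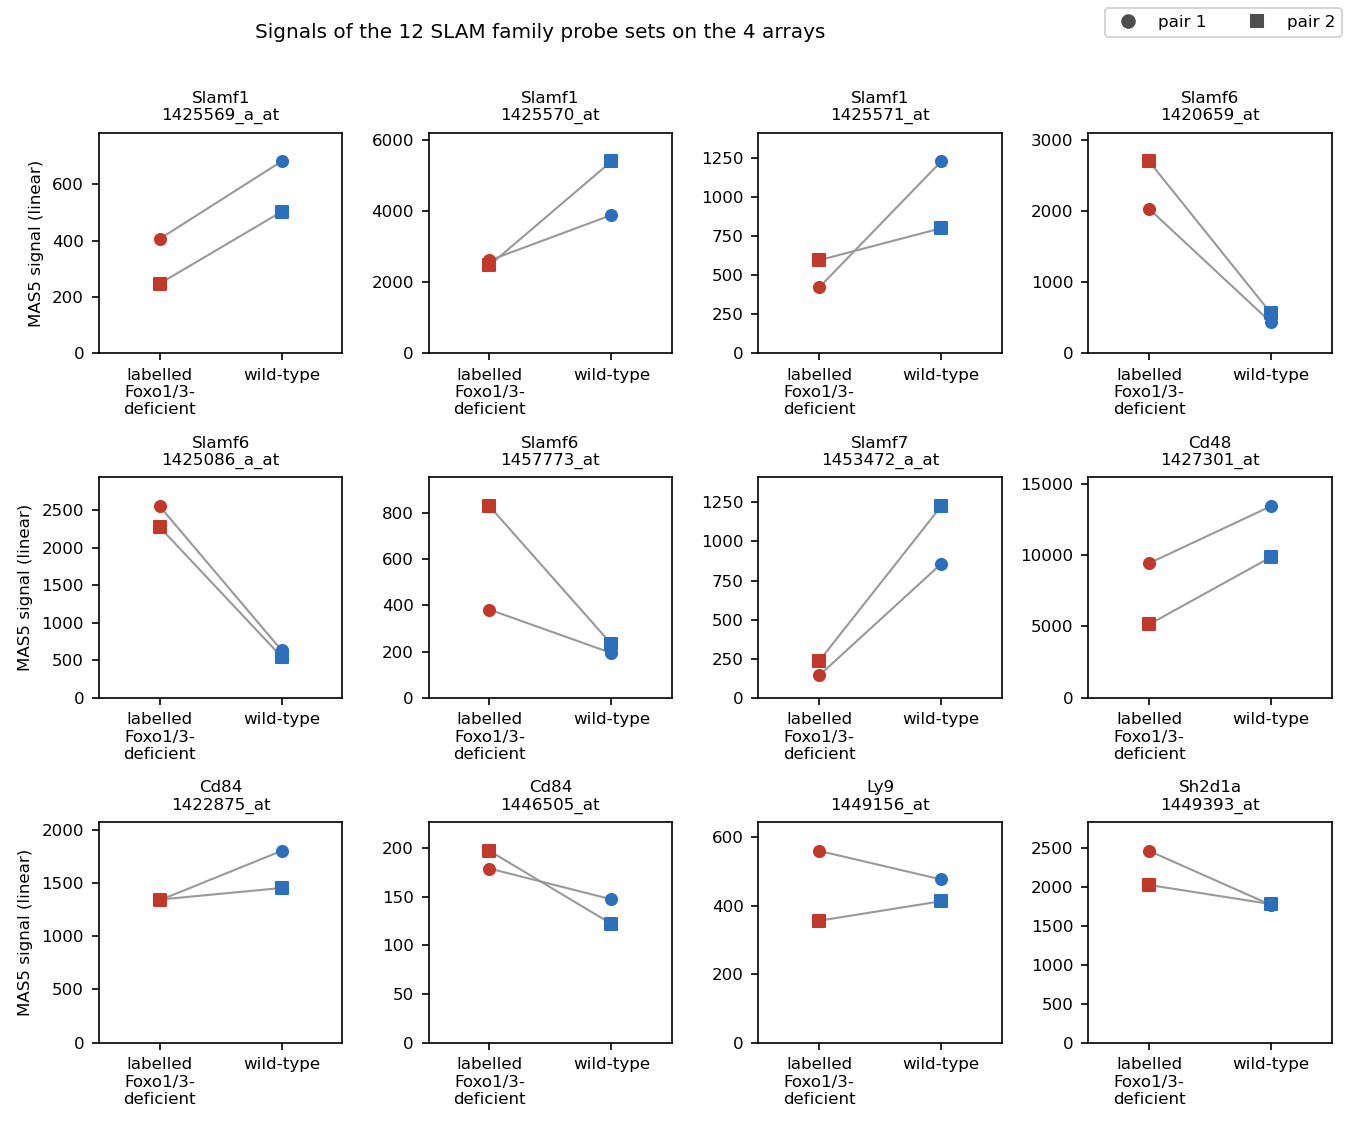
MAS5 signal on a linear axis for each of the 12 probe sets, with labelled Foxo1/3-deficient arrays (red) left of wild-type arrays (blue), circles for pair 1 and squares for pair 2, and a line joining the arrays of a pair. The lines of the 3 Slamf6 probe sets are high on the left and those of Slamf7, Slamf1 and Cd48 high on the right, in both pairs, and the lines of Ly9 slope in opposite directions.

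Slamf6 encodes Ly108, a receptor that binds itself and signals through SAP, and that in mice is also used as a surface marker of long-lived, progenitor-like T cells. Its brightest probe set (1425086_a_at) read 2552 and 2274 on the labelled-deficient arrays, against 634 and 548 on the wild-type arrays. Both labelled-deficient arrays stood far above both wild-type arrays, and the ratio was 4.03 in pair 1 and 4.15 in pair 2. The means were 2413 ± 197 and 591 ± 61.1 (SD, n = 2 each), and the log2 difference was 2.00 ± 0.23 (SE; limma adjusted p = 0.00712). Among the 12115 genes it was the 63rd highest difference.

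A second Slamf6 probe set (1420659_at) showed a change of like size. It read 2030 and 2699 on the labelled-deficient arrays, against 431 and 559 on the wild-type arrays, with ratios of 4.71 in pair 1 and 4.83 in pair 2. Tested among 22236 single probe sets, of which 0.805% were called higher, its log2 difference was 2.21 ± 0.27 (limma adjusted p = 0.00993). The third (1457773_at) was dimmer and less even, at 382 and 830 on the labelled-deficient arrays, against 194 and 233 on the wild-type arrays. It was higher in both pairs, by ratios of 1.97 and 3.56, but its log2 difference of 1.34 ± 0.39 missed the threshold (limma adjusted p = 0.175). In the fit blocked by pair it passed (0.00818), where 3.72% of probe sets were called higher.

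Slamf7 encodes CRACC, a self-binding receptor of natural killer cells, cytotoxic T cells and plasma cells that uses EAT-2, a relative of SAP, rather than SAP itself. Its only probe set (1453472_a_at) read 144 and 237 on the labelled-deficient arrays, against 857 and 1225 on the wild-type arrays. The groups were far apart, and the ratio was 0.168 in pair 1 and 0.193 in pair 2. The means were 190 ± 65.7 and 1041 ± 261 (SD, n = 2 each), with a log2 difference of -2.37 ± 0.33 (limma adjusted p = 0.0155). Tested probe set by probe set, where 0.639% were called lower, the adjusted p was 0.0167. It was the 54th lowest difference of the 12115 genes. Without the filter on dim probe sets, which raises the number of genes tested, the adjusted p was 0.0540.

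Slamf6 and Slamf7, the genes with the opposite changes, lie in the same block of SLAM genes on chromosome 1. The RefSeq promoter windows of GRCm38.p6 held an entry for 5 of the 7 genes, and the 250 bases before the start are shown for these 2 to set their sequences side by side (Slamf6 at chr1:171917212-171917461 on the plus strand, Slamf7 at chr1:171649000-171649249 on the minus strand). Capitals mark the forkhead core AAACA or its reverse complement TGTTT, the letters shared by motifs that FoxO factors bind.
Slamf6: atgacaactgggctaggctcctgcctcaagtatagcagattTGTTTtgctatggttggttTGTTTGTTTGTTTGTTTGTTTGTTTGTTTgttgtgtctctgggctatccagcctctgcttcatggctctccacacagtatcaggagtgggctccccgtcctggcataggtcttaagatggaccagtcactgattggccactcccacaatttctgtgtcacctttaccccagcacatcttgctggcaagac
Slamf7: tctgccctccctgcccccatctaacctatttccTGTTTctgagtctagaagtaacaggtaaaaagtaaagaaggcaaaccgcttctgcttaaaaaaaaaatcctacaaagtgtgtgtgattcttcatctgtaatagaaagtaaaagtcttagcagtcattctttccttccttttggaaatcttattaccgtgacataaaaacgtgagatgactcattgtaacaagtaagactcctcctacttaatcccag
The Slamf6 window held 8 core matches, of which 7 lay in a run of 8 GTTT copies, and among the 250 bases before the start in each of 32851 RefSeq windows, 0.0822% held as many. Over the same 250 bases the Slamf7, Cd48 and Cd84 windows held 1 each and the Slamf1 window 0, where 46.4% of windows held at least 1. The longer FoxO motif GTAAACA (3.17% of windows, both strands searched) was in none of the 5, and CAAAACA (5.56%), which contains the core, was in the Slamf6 window once. A match of letters is a description of the window and shows no binding.

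Slamf1 encodes SLAM itself (CD150), a self-binding receptor whose signal through SAP is known in mice for its part in interleukin-4 production by T cells. All of its 3 probe sets were lower on the labelled-deficient arrays in both pairs. The brightest (1425570_at) read 2613 and 2475 on the labelled-deficient arrays, against 3891 and 5404 on the wild-type arrays. The groups did not overlap, but the ratio was 0.672 in pair 1 and 0.458 in pair 2. The log2 difference was -0.85 ± 0.22, which missed the threshold (limma adjusted p = 0.112). Blocked by pair it was called (adjusted p = 0.00179), where 6.36% of genes were called lower, and it was also called without wild-type replicate 1 (0.0342).

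The other Slamf1 probe sets differed by a like amount. The first (1425569_a_at) read 406 and 247 on the labelled-deficient arrays, against 681 and 502 on the wild-type arrays, which is -0.85 ± 0.33 in log2 (limma adjusted p = 0.354, and 0.0425 blocked by pair). The other (1425571_at) read 422 and 597 against 1231 and 802, or -0.96 ± 0.31 in log2 (0.241, and 0.0338 with the block). With the block 3.85% of all probe sets were called lower. The pairs did not rank alike on them: pair 1 had the larger difference on 1425571_at (log2 -1.51, against -0.42 in pair 2), and pair 2 on 1425570_at (-0.57 in pair 1 and -1.12 in pair 2).

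Cd48 encodes a receptor held in the membrane by a lipid anchor, with no cytoplasmic tail, which is the ligand of CD244 and, in mice, of CD2. It read 9428 and 5147 on the labelled-deficient arrays, against 13423 and 9859 on the wild-type arrays. The groups were separated only narrowly, because pair 2 read lower than pair 1 in both genotypes (log2 -0.87 for the labelled-deficient and -0.44 for the wild-type arrays). Within pairs the ratio was 0.702 in pair 1 and 0.522 in pair 2. The log2 difference of -0.72 ± 0.30 missed the threshold (limma adjusted p = 0.356) and passed it in the fit blocked by pair (0.00636). It stood at -1.16 without labelled-deficient replicate 1 and at -0.29 without labelled-deficient replicate 2.

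**Figure D2:**
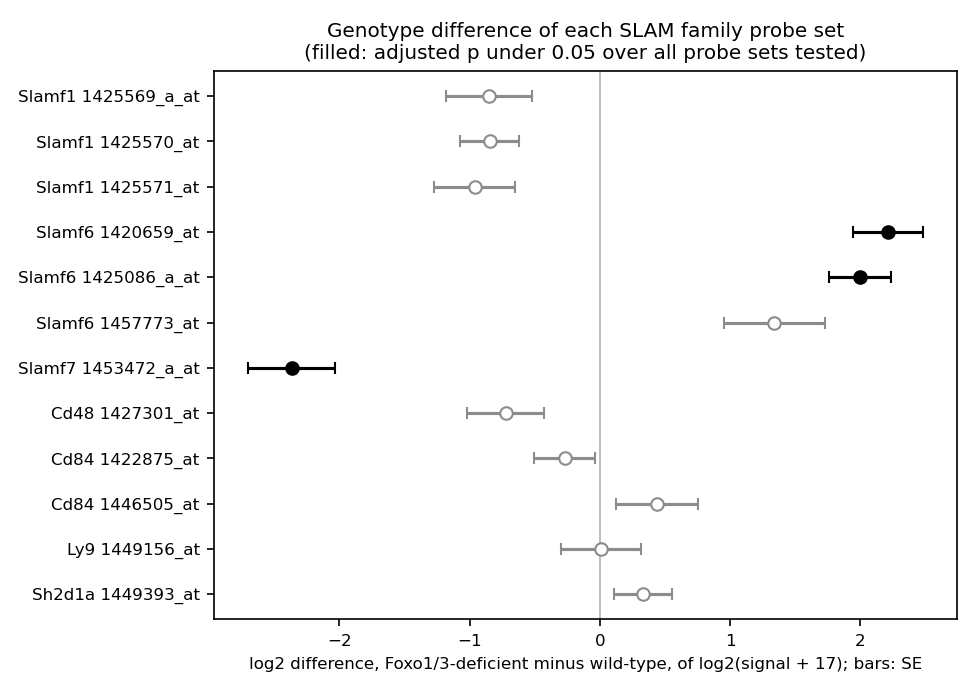
Log2 difference (points) with its SE (bars) of each probe set, labelled Foxo1/3-deficient minus wild-type, on the log2(signal + 17) scale, filled where the adjusted p over 22236 probe sets was under 0.05. Of the 12 probe sets, 3 are filled, 2 of Slamf6 to the right and that of Slamf7 to the left, and the 2 of Cd84 lie on opposite sides of 0.

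Cd84 and Ly9 encode self-binding receptors of T and B cells that signal through SAP. The brighter Cd84 probe set (1422875_at) read 1337 and 1344 on the labelled-deficient arrays, against 1801 and 1452 on the wild-type arrays, and its log2 difference was -0.27 ± 0.22 (limma adjusted p = 0.764). The dimmer one (1446505_at) went the other way, at 179 and 197 against 147 and 122, with a log2 difference of 0.44 ± 0.31 (0.747). The 2 probe sets of Cd84 thus disagreed in sign, neither passed in the fit blocked by pair (0.494 and 0.543), and the mean of both stood at 0.085.

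Ly9 read 560 and 356 on the labelled-deficient arrays, against 476 and 413 on the wild-type arrays. It was the one gene of the 7 whose groups overlapped, higher by a ratio of 1.17 in pair 1 and lower by a ratio of 0.862 in pair 2. Its log2 difference was 0.01 ± 0.30 (limma adjusted p = 0.997), and its sign turned under 3 of the 14 alternatives.

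Sh2d1a, the gene of SAP, read 2465 and 2027 on the labelled-deficient arrays, against 1770 and 1780 on the wild-type arrays. Both labelled-deficient arrays were the higher, by ratios of 1.39 in pair 1 and 1.14 in pair 2, but the log2 difference of 0.33 ± 0.21 did not pass the test (limma adjusted p = 0.641, and 0.246 blocked by pair). The wild-type arrays lay within 10.6 signal units of each other, and the labelled-deficient arrays 438 apart.

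**Figure D3:**
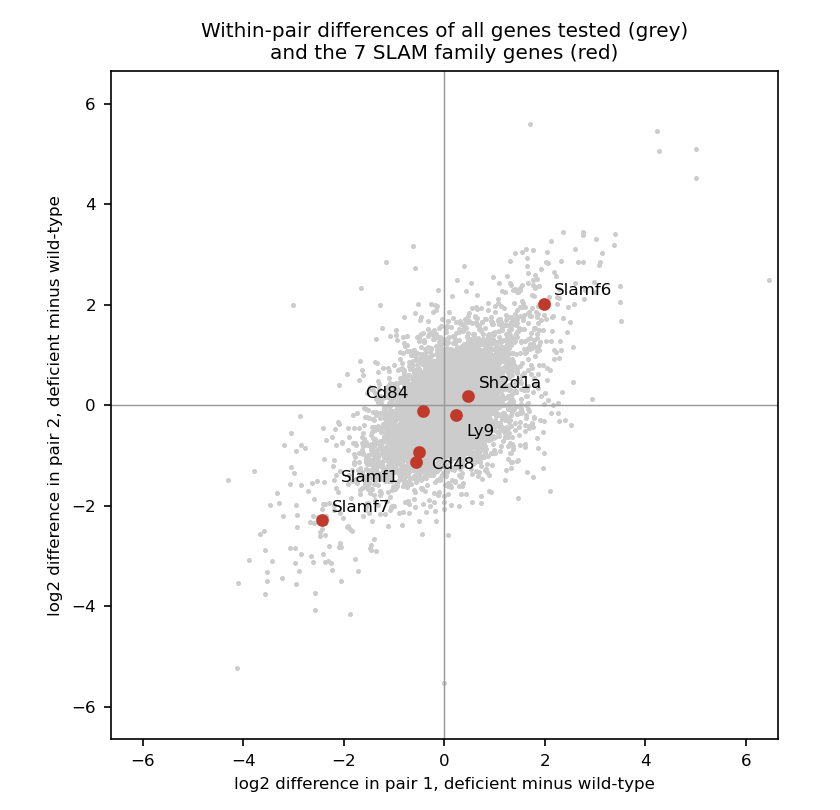
Log2 difference in pair 1 (horizontal axis) against pair 2 (vertical axis), labelled Foxo1/3-deficient minus wild-type, for the 12115 genes (grey) and the 7 SLAM family genes (red). Slamf6 (1.98 and 2.02) and Slamf7 (-2.44 and -2.29) lie near the diagonal at its outer parts, and the other 5 lie within the cloud around 0.

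Within pairs, Slamf6 was at least 2-fold higher in both, as 2.06% of all genes were, and Slamf7 at least 2-fold lower in both, as 2.32% were. On its brightest probe set Slamf1 exceeded 2-fold in pair 2 only (log2 -1.12), while 1425571_at did so in pair 1 only (-1.51). Cd48 came near 2-fold in pair 2 (log2 -0.94). No test was applied to these counts.

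The other receptors, ligands and adaptors of the family showed no change past the threshold. Of the 4 that the array named and the filter kept, 0 were called by limma, at an unadjusted p under 0.05 or in the blocked fit, and their median log2 difference was -0.20. Cd2, which binds CD48 in mice, read 9712 and 11919 on the labelled-deficient arrays, against 10899 and 11887 on the wild-type arrays (log2 -0.08 ± 0.18, limma adjusted p = 0.945). Cd244a, the other receptor for CD48, was dim and differed more between pairs than between genotypes, at 74.2 and 240 against 138 and 351 (adjusted p = 0.788). Slamf8 and Slamf9 were dim too, with log2 differences of -0.32 and 0.22. Sh2d1b1 and Sh2d1b2, the EAT-2 family genes, were looked for, but no probe set with 1 symbol carried either name, so they were not tested.

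Of 16 genes for kinases, phosphatases and adaptors downstream of SLAM receptors, 0 were called by limma. Among the 16, 3 had an unadjusted p under 0.05, where 13.0% of all genes had. Their median log2 difference was 0.03. Fyn, the kinase that SAP recruits, read 5621 and 5917 on the labelled-deficient arrays, against 6537 and 6253 on the wild-type arrays (log2 -0.15 ± 0.17, limma adjusted p = 0.852). Inpp5d, which encodes the lipid phosphatase SHIP-1, one of the inhibitory partners, read 3344 and 3300 against 5207 and 4810 (log2 -0.59 ± 0.18, adjusted p = 0.185). Blocked by pair, Inpp5d was called lower (limma adjusted p = 0.0148), where 6.36% of all genes were. Prkcq, a protein kinase C of T cells (0.0371), and Rasa1, a brake on Ras (0.0192), were called higher in the same fit, where 5.23% were. The tyrosine phosphatase genes Ptpn6 (SHP-1) and Ptpn11 (SHP-2) stood at log2 0.48 ± 0.24 and -0.21 ± 0.23 (limma adjusted p = 0.491 and 0.846).

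The 6 receptor genes form a block on chromosome 1 in the order Ly9, Slamf7, Cd48, Slamf1, Cd84, Slamf6, with 1 other entry, Tma7-ps, between Cd48 and Slamf1, and Sh2d1a lies elsewhere. To see whether genes around the block differed too, the 10 nearest genes tested on each side were read, by gene order in RefSeq GRCm38.p6. Of these 20, 0 were called by limma, and 2 (Vangl2 and Dcaf8) had an unadjusted p under 0.05, where 13.0% of all genes had. Dcaf8 was called higher in the blocked fit, where 5.23% of all genes were. The log2 differences of the 20 ran from -0.64 (Cd244a, which borders the block) to 0.89 (Vangl2, a planar polarity gene on the other side), with a median of 0.05. The differences of Slamf6 and Slamf7 lay outside that range, as did the smaller ones of Slamf1 (-0.85) and Cd48 (-0.72), which were not called. Those of Cd84 and Ly9 lay within it.

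**Figure D4:**
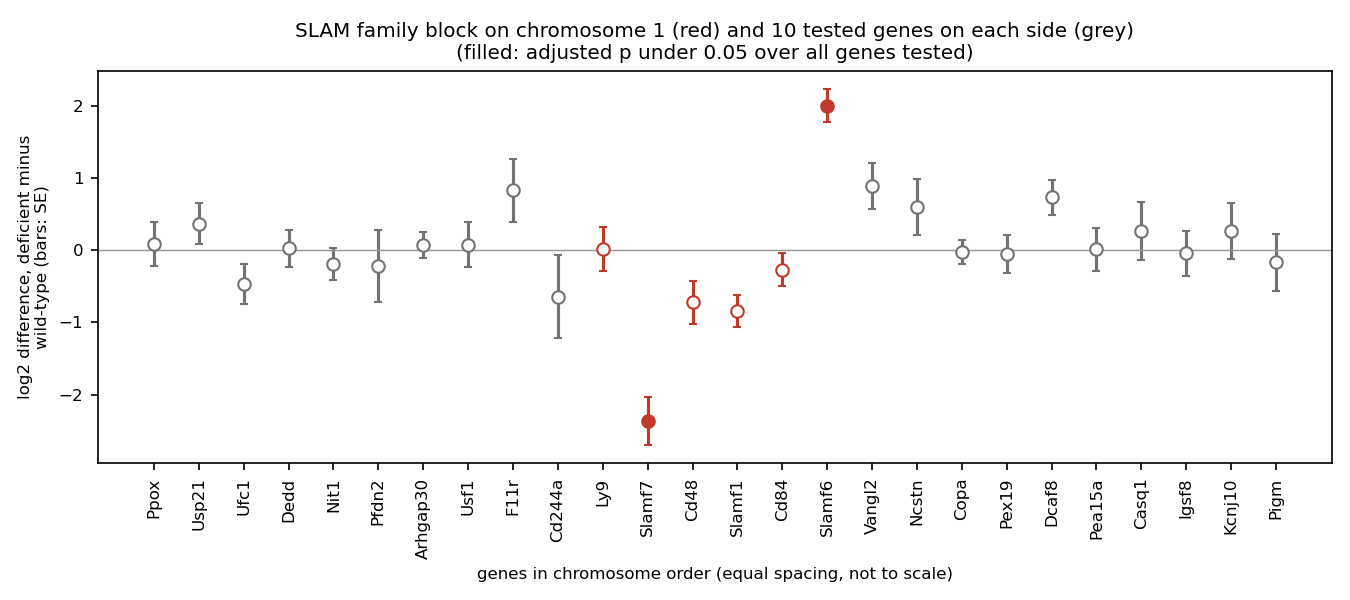
Log2 difference (points) with its SE (bars), labelled Foxo1/3-deficient minus wild-type, for the 6 SLAM receptor genes (red) and the 10 tested genes on each side (grey), in chromosome order with equal spacing. Slamf7 and Slamf6, near opposite ends of the block, are the filled points (adjusted p under 0.05), below and above 0.

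Genes of 2 kinds of T cell in which SLAM receptors and SAP are known to act were read next. Of 13 genes of follicular helper and follicular regulatory T cells, which help or restrain B cells in germinal centres, 2 fell and 0 rose by limma, where 1.35% and 1.21% of all genes did, 7 had an unadjusted p under 0.05, where 13.0% of all genes had, and the median log2 difference was -0.64. The falls were Pdcd1, the gene of the inhibitory receptor PD-1, at 1135 and 1277 on the labelled-deficient arrays, against 3292 and 3882 on the wild-type arrays (log2 -1.56 ± 0.21, limma adjusted p = 0.0146), and the transcription factor gene Maf, at 7260 and 7178 against 13660 and 12488 (-0.85 ± 0.17, 0.0442). In the blocked fit 6 were called lower, Bcl6 and Il21 among them, where 6.36% of all genes were, and 3 higher, Btla, Pou2af1 and Cd200, where 5.23% were. Cd200 differed in pair 1 only, at 1877 and 594 on the labelled-deficient arrays, against 404 and 594 on the wild-type arrays. Maf missed the threshold under 9 of the 14 alternatives, whichever array was left out (adjusted p between 0.0505 and 0.170) and in 5 others, up to 0.179 without the intensity trend of the variance. Pdcd1 missed it without labelled-deficient replicate 1 (0.0511) and without the trend (0.0577).

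Of 8 genes of innate-like T cells, 2 fell and 0 rose by limma, beside the same shares of all genes, with a median log2 difference of 0.09. An unadjusted p under 0.05 was reached by 4 of the 8, where 13.0% of all genes reached it. The blocked fit called 2 higher and 2 lower, where 5.23% and 6.36% of all genes were. Tbx21, the gene of the transcription factor T-bet, read 449 and 491 on the labelled-deficient arrays, against 2399 and 1961 on the wild-type arrays (log2 -2.17 ± 0.24, limma adjusted p = 0.00629). Id2, an inhibitor of E proteins, read 5677 and 9658 against 19427 and 19798 (-1.40 ± 0.25, 0.0343). Its call was lost without labelled-deficient replicate 1 (0.0664), without the filter (0.112) and without the trend (0.125). Zbtb16, the gene of PLZF, which directs innate-like T cells, was dim at 81.4 and 154 against 28.3 and 26.7, and was called higher only in the blocked fit (adjusted p = 0.0269). Egr3 was the other gene called higher in that fit (log2 0.70, limma adjusted p = 0.00902), and it was higher in both pairs.

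SLAM receptors are also carried by B cells, plasma cells, natural killer cells, CD8 T cells and macrophages, so markers of these cells were read on the same arrays; in bulk RNA fewer cells of a type and less RNA per cell cannot be told apart. Of 6 CD8 T cell markers 2 fell, Klrc1 (limma adjusted p = 0.00543) and Eomes (0.020). Eomes missed the threshold without labelled-deficient replicate 2 (0.0544), without the filter (0.0540) and without the trend (0.0520). The 6 summed to 1469 and 1831 on the labelled-deficient arrays, against 3035 and 3293 on the wild-type arrays. The defining genes Cd8a and Cd8b1 read at most 444 on any array and were not called, at log2 -0.01 and 0.44. Klrd1 and Klrk1 were not called either, at log2 -0.07 and -0.55. Of 5 natural killer cell markers tested 2 fell, Gzma (limma adjusted p = 0.00152) and Cd160 (0.00712). The others tested were not called, with Tyrobp at log2 0.67, Fcer1g at 0.24 and Prf1 at -0.31. The summed signal of the 8 on the array was 2370 and 2451 on the labelled-deficient arrays, against 9617 and 10746 on the wild-type arrays. Gzma (267 and 176 against 4957 and 7243) and Cd160 (589 and 361 against 2569 and 2668) carried most of that fall. The defining marker Ncr1 was dim on all arrays, at 29.2 and 17.1 against 37.2 and 13.9. The falls of Klrc1, Eomes, Gzma and Cd160 went with that of Slamf7, and their part in it was not tested.

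No marker of B cells, macrophages or the remaining cell types passed the test. Of 8 B cell markers tested 0 were called, with sums over 9 markers of 3659 and 2581 on the labelled-deficient arrays, against 3796 and 1694 on the wild-type arrays. These sums overlapped between the groups, while single markers went both ways: in the blocked fit Ms4a1, the gene of CD20, was called higher (adjusted p = 0.00494) and Cd22 lower (0.0266). Of 8 macrophage and monocyte markers tested 0 were called (3 at an unadjusted p under 0.05, and 3 higher in the blocked fit), and the sums over 9 markers were 12401 and 9111 against 8322 and 5694. The macrophage sums and Ms4a1 were higher on the labelled-deficient array of each pair, as Slamf6 was, and their part in its difference was not tested. Csf1r was the largest term of the macrophage sums (6676 and 5165 against 4749 and 2987). The median log2 difference of the 8 macrophage markers tested was 0.57. Csf1r, Adgre1 and C1qb were the 3 called higher in the blocked fit. Adgre1 read 1538 and 978 on the labelled-deficient arrays, against 691 and 508 on the wild-type arrays. C1qb read 1530 and 1185 against 671 and 592. C1qa, Cd14 and Fcgr1 were also higher in both pairs, while Cd68 (log2 0.08) and Lyz2 (-0.14) differed little. Of the other B cell markers tested, Blk and Ebf1 were higher in both pairs and Cd22 lower in both. Cd79a, Cd79b, Cr2 and Fcer2a were lower in pair 1 and higher in pair 2. Of 7 plasma cell, 8 dendritic cell and 4 platelet or erythroid markers tested 0 were called, with 0, 0 and 1 at an unadjusted p under 0.05. In the blocked fit 1 of these was called, the plasma cell marker Irf4, which was higher (log2 0.61, limma adjusted p = 0.0364). No marker had a signal of 0 on any array.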

How the data were processed

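The authors deposited linear MAS5 intensities, 1 per probe set, per the submitters' processing notes, which give neither version nor settings. All 4 arrays had the same 2% trimmed mean (500.003), so no scaling was added. Of 45101 probe sets 64 were controls, and 34945 had 1 gene symbol, 932 several and 9160 none in the platform annotation, which can be old.

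Signals were tested as log2(signal + 17), 17 being the rounded 25th percentile of all values. Probe sets below the 40th percentile of mean log2 values, a signal near 40.5, were dropped. The brightest probe set stood for its gene, which left 12115 genes, and every kept probe set with 1 symbol was also tested (22236). The genotypes were compared by limma 3.58.1 under R 4.3.3 (lmFit and trended eBayes, two-sided p), adjusted by Benjamini-Hochberg over the whole table and a threshold of 0.05. With 2 arrays a group there were 2 residual degrees of freedom beside 5.69 from the variance prior, and the number of arrays limits the precision. The fit blocked by pair had 1 residual degree of freedom beside 16.3 from the prior, and 1 beside 11.8 over single probe sets. Its p-values therefore rest mostly on the variance pooled over genes or probe sets. The method was tested on simulated data drawn from its own variance model, which cannot show how well that model holds for these arrays.

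The titles call the number a pair, which is where the pairing comes from; deviations from the group means correlated at 0.367 between arrays of the same number, across genes, which are not independent replicates. A fit with the pair number as a block was tried as an alternative, and so were other pseudocounts, filters, probe-set choices, the variance model without trend, quantile normalization and leaving out each array.

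The 7 members and the gene lists were chosen with earlier results of these data known. Named besides the members were list genes that passed the test, Fyn, Cd2, Cd244a, Ptpn6, Ptpn11 and Inpp5d, and for each member the 2 genes with the smallest Euclidean distance of centred log2 values over the 4 arrays; further genes that passed only with the block, or set a range, were named after their values were seen. RefSeq GRCm38.p6 gave the promoter windows and gene order; other coordinates are not printed because the sources used here name no genome build for the probe sets.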

Additional observations from a re-analysis of the deposited data

How the results depend on the processing

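The 7 genes were refitted under 14 alternatives, and Slamf6 was called higher under each (log2 1.85 to 2.21, highest adjusted p 0.0327). Slamf7 kept its direction (log2 -2.70 to -2.04) and was called under all but the fit without the filter (adjusted p = 0.0540), which left 0 SLAM genes called lower, where 18193 genes were tested. With the pair as a block 3 were called lower (Slamf7, Slamf1 and Cd48), and leaving out 1 array gave 1 to 2 called lower. The same block raised the counts over all genes to 634 higher and 770 lower, where the fit without it gave 147 and 164. Those counts were 45 and 44 without the filter, 57 and 54 without the intensity trend, and from 67 to 278 higher and from 82 to 266 lower when 1 array was left out: 67 and 82 without labelled-deficient replicate 1, 72 and 104 without labelled-deficient replicate 2, and 278 and 266 without wild-type replicate 1. Tested probe set by probe set, Slamf7 missed the threshold without the filter (0.0762) and without the trend (0.0515).

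Some differences that had not passed the test changed sign. Ly9 stood at log2 -0.052 under quantile normalization, Cd84 at 0.085 on the mean of its probe sets, and Fyn at 0.091 on its first-listed probe set. When 1 array was left out, Ly9 ranged from -0.30 to 0.32, Cd2 from -0.23 to 0.066, Cd244a from -1.39 to 0.10 and Ptpn11 from -0.45 to 0.033; the sign turned without labelled-deficient replicate 1 in all 4 and without wild-type replicate 2 (-0.089) in Ly9. The cause was not tested. Of 27 named genes under the 14 alternatives, 0 of those called changed sign.

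The pair as a block changed the calls of Slamf1, Cd48, Inpp5d and Foxo3 among these 27. Without a floor on detection, dim signals such as those of Cd244a, Slamf8, Slamf9 and Zbtb16 were not separated from absence.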

Other observations

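For each of the 7 genes, the 2 other genes whose values over the 4 arrays were most like it were found by the Euclidean distance between log2 values centred on each gene's mean, over 4 arrays only. Nearest to Slamf6 were Dapk1, the gene of a death-associated kinase (distance 0.14), which read 539 and 513 on the labelled-deficient arrays, against 116 and 109 on the wild-type arrays, and Tent5c (0.17), which read 8222 and 6789 against 2073 and 1956. Dapk1 missed the threshold on the mean of its probe sets (limma adjusted p = 0.0551), without the filter (0.0540) and without labelled-deficient replicate 1 (0.0506). Nearest to Slamf7 were Rai14 (0.13), at 95.9 and 163 against 670 and 898, and the drug efflux pump gene Abcb1a (0.21), at 474 and 627 against 2635 and 3522. Rai14 missed the threshold on the mean of its probe sets (0.0823) and without the filter (0.0540).

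The nearest to Slamf1 were Mif4gd (0.05) and Ndc1 (0.09), and to Cd48 Prrt1 (0.09) and Ccn2 (0.12). To Cd84 they were Ndufa2 and Rbmxl1 (0.03 each), to Ly9 Tmem123 (0.01) and Spg20 (0.02), and to Sh2d1a Gm10785 (0.03) and Lins1 (0.04). None of these 10 passed the test, and small distances among genes that differ little between arrays are common, so their order carries little.

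Signals also differed between the numbered pairs. In both genotypes Slamf7 was the higher in pair 2, by log2 0.66 on the labelled-deficient and 0.51 on the wild-type arrays. The dim Slamf6 probe set 1457773_at read higher in pair 2 by log2 1.09 on the labelled-deficient and 0.24 on the wild-type arrays, while the brightest, 1425086_a_at, read lower there by less (-0.17 and -0.21). No test was applied to these differences.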
